A study of Mus musculus with 7 samples.

Results

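The miRNAs described here come from a stretch of the imprinted Dlk1-Dio3 domain on distal mouse chromosome 12 that runs from the hairpin of mmu-miR-379 to that of mmu-miR-495. They were chosen by hairpin: any row of the deposited table that carries the name of miR-379, miR-411, miR-299, miR-380, miR-323, miR-329, miR-494, miR-543 or miR-495, in either arm or star form. Of the 252 mouse miRNAs in the table, 10 met this rule, and they come from 8 of the 9 hairpins. They are miR-379, miR-411 and miR-411*, miR-299 and miR-299*, miR-380-3p, miR-329, miR-494, miR-543 and miR-495. Both arms of miR-323, and miR-380-5p, were detected on none of the 7 arrays and have no row in the table.

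The Dlk1-Dio3 domain is expressed according to parental origin. Dlk1 and Dio3 are protein-coding genes of the paternal chromosome, whereas the noncoding RNAs Meg3, Rian and Mirg and the large miRNA cluster among them are expressed from the maternal one, and the cluster is known for its activity in the embryo, the placenta and the brain. Each hairpin is cut by Dicer into a duplex, of which one or both arms enter an Argonaute protein. Bases 2 to 8 of the mature strand, the seed, account for most of its pairing with target mRNAs.

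All cells were p53-null mouse soft tissue sarcoma cells that had been digested from tumors and cultured in monolayer, so that loss of p53 was shared by every group. Control primary cells carried a non-target shRNA (2 arrays), and Rb-depleted primary cells carried 1 shRNA against Rb (2 arrays). Both lines were selected with puromycin. Rb-depleted secondary cells (3 arrays) were retrieved from hand-picked, pooled spheres that Rb-depleted cells had formed in serum-free methylcellulose, and were then passaged once in 2D culture. Control cells recovered from the same kind of culture, in which they formed no visible spheres, were not analysed here. Rb depletion and retrieval from spheres therefore cannot be told apart in the secondary cells against the controls. Rb is a protein, and the array holds no probe for its mRNA.

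The segment spans 9757 bases of NCBIM37 (chr12:110947270-110957026), the build named in the scanner files. In the GENCODE annotation of that build it lies between genes, starting 47351 bases after the end of Rian and ending 16165 bases before the start of Mirg, and no gene other than the miRNAs overlaps a hairpin. In order, Mir379 lies at chr12:110947270-110947335, Mir411 at chr12:110948385-110948466 and Mir299a at chr12:110948848-110948910. Mir380 lies at chr12:110950013-110950073 and Mir329 at chr12:110951691-110951787. Mir494 lies at chr12:110953528-110953612, Mir543 at chr12:110955468-110955543 and Mir495 at chr12:110956964-110957026. All are on the plus strand. A minus-strand hairpin, Mir299b, lies inside Mir299a at chr12:110948855-110948903.

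The mature sequences of the miRNAs on which the results turn are shown 5′ to 3′ with the seed in capitals, from RefSeq (GRCm38.p6). The first set holds the neighbours miR-379 and miR-411 and the star strand of miR-411, whose group differences were close to each other.
mmu-miR-379-5p: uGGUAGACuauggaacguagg
mmu-miR-411-5p: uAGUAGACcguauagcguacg
mmu-miR-411-3p: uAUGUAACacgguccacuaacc
The second set shows why the row miR-299* cannot be given to one strand. Its scanner name is miR-299b-5p, the sequence of which is contained whole in miR-299a-5p, 1 base longer at its start.
mmu-miR-299a-3p: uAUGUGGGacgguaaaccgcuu
mmu-miR-299b-5p: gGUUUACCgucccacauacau
mmu-miR-299a-5p: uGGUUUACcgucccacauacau
The third set holds the brightest member, miR-494, and the pair miR-543 and miR-495, which share their last 12 bases (GGUGCACUUCUU) and differ in the seed.
mmu-miR-494-3p: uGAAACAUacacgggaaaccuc
mmu-miR-543-3p: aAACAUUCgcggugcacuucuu
mmu-miR-495-3p: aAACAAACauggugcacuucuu
No seed was shared between any of the 10 members.

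On these 1-colour arrays, 258 to 287 of 696 mouse miRNAs were detected per array, and the scanner signal summed over the table's 252 miRNAs ranged from 432616 to 550498. The lowest sum was that of Rb-depleted primary replicate 2. The number of arrays limits the precision, and since nothing states that replicates came from separate animals or tumors, p-values measure only the spread between these samples, which may be technical. The 4 arrays of primary cells and secondary replicate 1 shared a slide, whereas secondary replicates 2 and 3 were on another. Of the marker miRNAs, the 6 mesenchymal forms matched by name, from miR-143, miR-199a, miR-199b and miR-214, were all in the table. Their summed signal before normalization was 12399 to 13419 in control, 8973 to 10813 in Rb-depleted primary and 11595 to 13197 in secondary cells. No form of miR-145, also listed as mesenchymal, was matched, so it enters neither the count nor the sum. None of 12 epithelial and none of 6 blood forms was detected on any array. Skeletal muscle forms were represented by miR-206 alone (1 of 4), with a summed signal of 46.6 to 47.3 in control, 28.1 to 44.1 in Rb-depleted primary and 13.2 to 36.7 in secondary cells. Of the neural forms, 4 of 6 were in the table, with a summed signal of 262.5 to 277.4 in control, 165.2 to 228.3 in Rb-depleted primary and 137.8 to 204.9 in Rb-depleted secondary cells. The mesenchymal sum, like most members, was lowest in Rb-depleted primary cells. The part of these markers in the results was not tested. In bulk RNA, fewer cells with a miRNA and less of it per cell cannot be told apart.

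Brightness does not rank miRNAs by abundance, since probes differ in affinity, but it sets how precisely each was measured. miR-494 was the brightest member, with a scanner signal between 966 and 2850. The median signal over the 7 arrays lay between 40.7 (miR-543) and 177 (miR-379) for the next 8 members, and miR-299 was far dimmer at 5.32. The scanner's own error was 7.47% to 15.6% of the signal for the 9 brighter members and 18.8% to 31.1% for miR-299.

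The first question was whether the 3 groups differed. By limma's F-test, taken at an adjusted p (Benjamini-Hochberg) under 0.1, 3 of the 10 members passed, against 43.3% of all 252 miRNAs. These were miR-299 (adjusted p = 0.0573), miR-411 (0.0585) and miR-299* (0.0623), which come from neighbouring hairpins. The other 7 members had adjusted p-values of 0.131 to 0.509. The count moved with single arrays, as did the share of all miRNAs. Without secondary replicate 1 or secondary replicate 3, 1 member passed, where 21.0% and 22.6% of all miRNAs did. Without secondary replicate 2, 3 members passed, where 49.2% of all miRNAs did. Fits without a control or an Rb-depleted primary array leave 1 array in that group, and their F-test counts are not given.

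Rb-depleted primary cells were compared with control primary cells to ask what changes with Rb depletion alone. The deposited mean of each of the 10 members was lower in Rb-depleted cells, where 48.8% of all miRNAs were lower. The members' log2 differences ran from -1.72 to -0.19 with a median of -0.35, beside a median of 0.01 over all miRNAs. However, none of the 10 had a limma adjusted p under 0.05, a threshold passed by 1.59% of all miRNAs. At an unadjusted p under 0.05 there were 5, against 25.4% of all miRNAs, and the classical tests without moderation gave 0 past the adjusted threshold. On 5 members the Rb-depleted arrays lay wholly below the control arrays, which held for 26.6% of all miRNAs.

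These 5 members all come from the hairpins Mir379, Mir411 and Mir299a or Mir299b. miR-411 gave log2 values of 6.74 and 6.72 in control and 6.32 and 5.92 with Rb depleted. Both control arrays were thus above both Rb-depleted arrays, and the difference was -0.61 ± 0.15 (SE of the limma fit), an adjusted p of 0.102. Its star strand, miR-411*, gave 5.77 and 5.93 in control and 5.64 and 5.03 with Rb depleted. The lower of the Rb-depleted values was far from the other, and the difference of -0.52 ± 0.20 had a limma adjusted p of 0.19.

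miR-379, the first miRNA of the cluster stretch, gave 7.64 and 7.84 in control and 7.46 and 7.01 in Rb-depleted primary cells. Its difference was -0.50 ± 0.17 (limma adjusted p = 0.152). miR-299* gave 7.29 and 7.34 in control and 7.05 and 6.85 in Rb-depleted primary cells. This was the smallest difference of the 5, at -0.37 ± 0.10, and also the tightest (limma adjusted p = 0.117). miR-299 gave 1.90 and 2.01 against 0.65 and -0.18, a difference of -1.72 ± 0.53 (limma adjusted p = 0.141). A Dunnett-type adjustment over both control comparisons was applied in limma to miRNAs past the F-test. At the 0.05 threshold it passed miR-411, miR-299* and miR-299 here, as it did 17.1% of all miRNAs. The F-test that chose them used the same arrays. This adjustment was made within each miRNA and not over the 252 miRNAs. Over the 252, the limma adjusted p-values of miR-411, miR-299* and miR-299 were 0.102, 0.117 and 0.141, as given above.

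**Figure D1:**
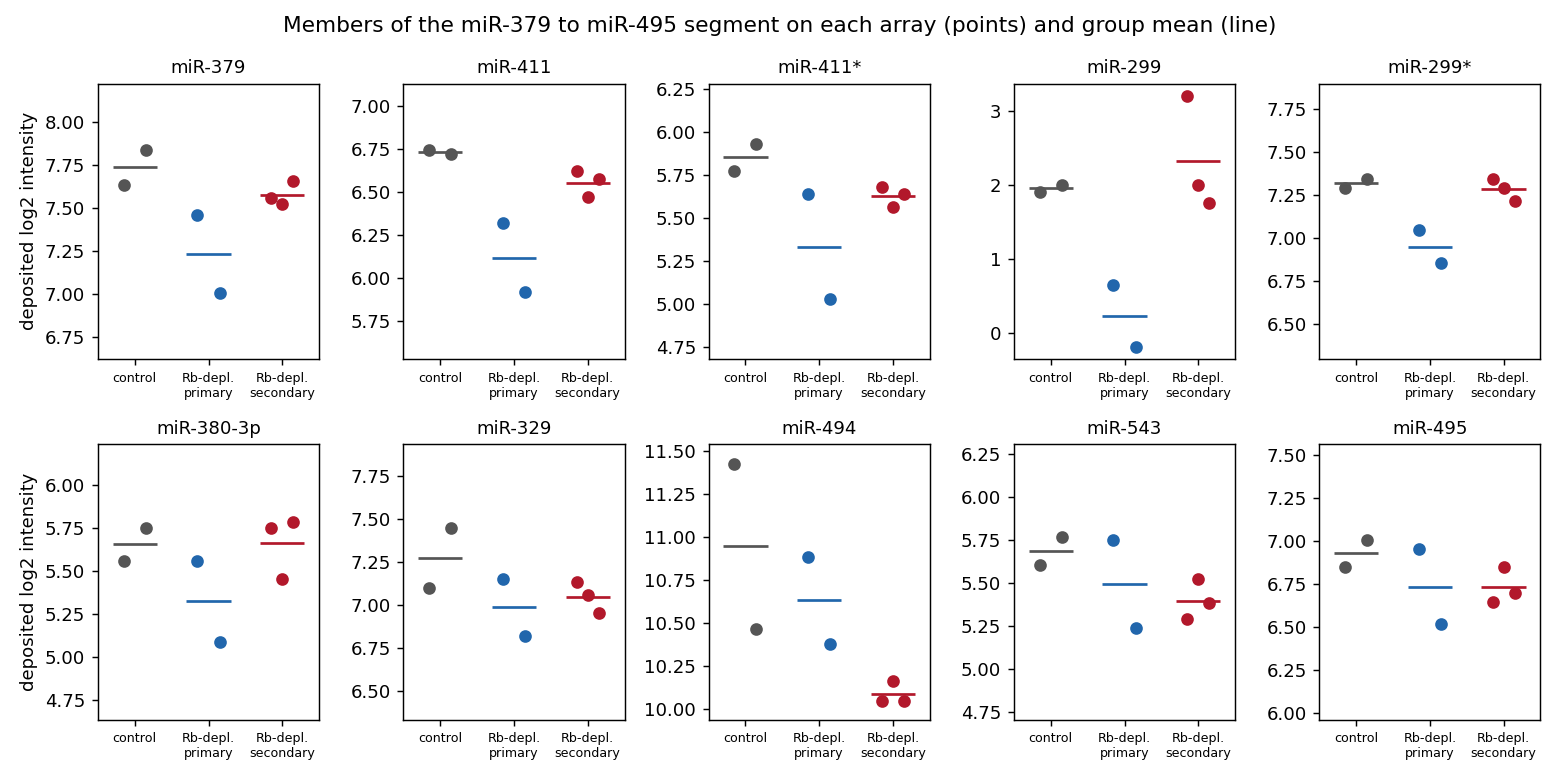
Deposited log2 intensity (y axis, a separate range for each panel) of the 10 members in control primary (grey, 2 arrays), Rb-depleted primary (blue, 2 arrays) and Rb-depleted secondary cells (red, 3 arrays), in the order of the hairpins. Points are arrays and lines are group means; the right-hand point of the Rb-depleted primary cells, replicate 2, is the lowest of the 7 arrays for 9 of the 10 members.

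From Mir380 to Mir495 the groups overlapped for every member. miR-380-3p gave 5.56 and 5.75 in control and 5.56 and 5.09 in Rb-depleted primary cells, so that 1 array of each group had the same value. miR-329, miR-543 and miR-495 differed by -0.29, -0.19 and -0.19, with limma adjusted p-values of 0.345, 0.558 and 0.499. miR-494 gave 11.43 and 10.47 in control and 10.88 and 10.38 with Rb depleted. Its control replicates were further apart than the group means, which differed by -0.32 ± 0.33 (limma adjusted p = 0.574). Without control replicate 1 this difference was 0.16.

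One array carried much of the comparison. Rb-depleted primary replicate 2 held the lowest of the 7 deposited values for 9 of the 10 members, and it held the lowest for 19.8% of all 252 miRNAs. After scaling to the 75th percentile of the table's miRNAs it again held the lowest value for 9 of 10, and for 21.0% of all miRNAs. Without this array the members' median difference from control was -0.17, and miR-543 and miR-495 turned to 0.07 and 0.03. Without Rb-depleted primary replicate 1 the median was -0.57, and 3 members passed the adjusted threshold, namely miR-379, miR-411 and miR-411*, where 8.73% of all miRNAs passed. The summed signal of replicate 2 was also the lowest, as given above, and its part in these values was not tested.

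Rb-depleted secondary cells were then compared with control primary cells. None of the 10 members had a limma adjusted p under 0.05, where 22.6% of all miRNAs did, and the classical tests gave 0 as well. The mean was lower for 8 members and higher for 2, with a median of -0.19 beside 0.03 over all miRNAs, of which 46.4% were lower. At an unadjusted p under 0.05 there was 1 member, miR-494, against 36.5% of all miRNAs. Its log2 values were 10.05, 10.17 and 10.05 in secondary cells, below both control values. The SD was 0.07 over the secondary arrays (n = 3) and 0.68 over the control arrays (n = 2), and the difference was -0.86 ± 0.31 (limma adjusted p = 0.111). It was -0.38 without control replicate 1 and -1.34 without control replicate 2, and its adjusted p in the leave-one-out fits was 0.0642 to 0.397.

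Arrays of the secondary and the control cells did not overlap for 4 members, all lower in secondary cells: miR-494, miR-543, miR-411 and miR-411*. For 22.2% of all miRNAs the arrays were separated in this direction. miR-411 gave 6.62, 6.47 and 6.58 in secondary cells, a difference from control of -0.18 ± 0.13 (limma adjusted p = 0.391). miR-543 gave 5.29, 5.52 and 5.38, a difference of -0.29 ± 0.17 (limma adjusted p = 0.277). On the slide that held the controls, with 1 secondary array, the members' median was -0.16 against control and 0.33 against Rb-depleted primary cells. For miR-379, miR-299* and miR-380-3p, the secondary arrays overlapped the control values, with differences of -0.16, -0.03 and 0.01.

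**Figure D2:**
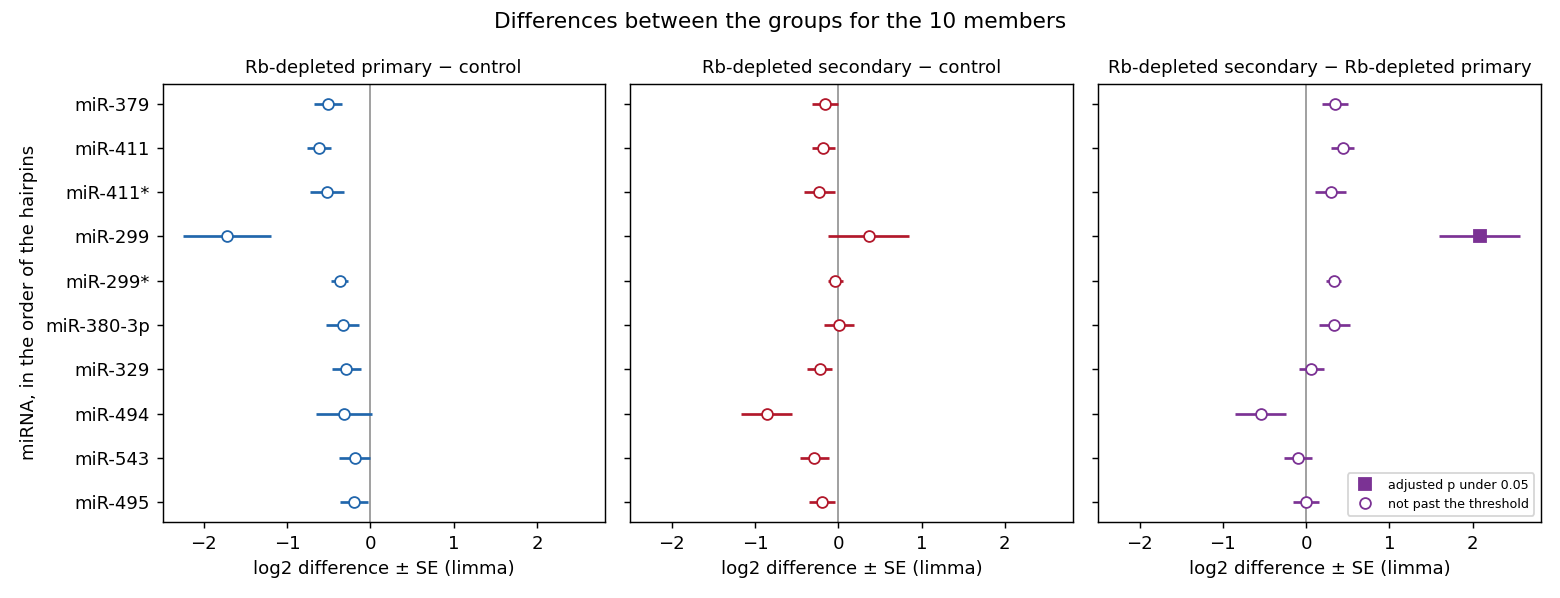
Log2 difference ± SE of the limma fit (x axis) for the 10 members in hairpin order (y axis) in the 3 comparisons; a filled square marks an adjusted p under 0.05 and open circles the rest. All 10 values lie below 0 in the first panel, and only miR-299 in the third panel passes the threshold.

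Rb-depleted secondary cells were finally compared with Rb-depleted primary cells, the cells from which they were derived. This comparison uses the same Rb-depleted primary arrays as the first, so a low value on them enters both. miR-299 rose by 2.09 ± 0.49 (limma adjusted p = 0.0411) and was the only member past 0.05, where 20.2% of all miRNAs were and 12.7% were higher. At an unadjusted p under 0.05 there were 3 members, against 40.5% of all miRNAs. Next came miR-299*, at 0.33 ± 0.09 (limma adjusted p = 0.0563), and miR-411, at 0.44 ± 0.13 (limma adjusted p = 0.0702). The means of 7 members were higher and those of 3 lower in secondary cells, with a median of 0.31 beside 0.02 over all miRNAs, of which 53.6% were higher. Without Rb-depleted primary replicate 2 the median was 0.05 and no member passed, beside 0.794% of all miRNAs. Without replicate 1 it was 0.50, and miR-411 and miR-411* passed, as did 11.9% of all miRNAs.

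Secondary arrays lay wholly above the Rb-depleted primary arrays for 4 members (miR-379, miR-411, miR-299 and miR-299*), which held for 27.0% of all miRNAs. miR-379 gave 7.56, 7.52 and 7.66 in secondary cells, 0.35 ± 0.15 above the Rb-depleted primary mean (limma adjusted p = 0.162). miR-299* gave 7.34, 7.29 and 7.21, the first of which equalled the higher control value. miR-494 was the 1 member whose secondary arrays lay wholly below, by -0.54 ± 0.31 (limma adjusted p = 0.255), as for 24.2% of all miRNAs.

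The result for miR-299 depends on how the arrays were scaled. Its deposited values in secondary cells were 3.20, 2.01 and 1.75, the first higher than on any other array. Its scanner signal was 8.82 and 8.42 in control, 5.32 and 4.13 in Rb-depleted primary and 5.62, 4.99 and 4.78 in secondary cells, each with a scanner error between 1.12 and 1.75. On this scale secondary replicate 1 was below both controls and within its error of Rb-depleted primary replicate 1. On every array miR-299 was among the 6 dimmest of the table's 252 miRNAs. Its signal rested on 1 of 4 probes, which read 4.13 to 8.82, while a second read -0.58 to 3.28 and the other two were below 0 throughout.

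Against Rb-depleted primary cells, miR-299 differed by 0.35 after scaling to the 75th percentile of the table's miRNAs (adjusted p = 0.191, limma). The difference was 0.07 after quantile normalization of the table's miRNAs alone (limma adjusted p = 0.784) and 0.13 with no normalization (limma adjusted p = 0.597). Every leave-one-out fit kept the direction, with a difference of at least 1.64, but none kept the call, with adjusted p-values of 0.052 to 0.189. Within the slide that held all primary arrays, 1 secondary array remained, assumed in the limma fit to vary like the others, and the difference was 2.97 ± 0.41 (adjusted p = 0.0469). With slide as a term it was 2.97 ± 0.37 (limma adjusted p = 0.0548).

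**Figure D3:**
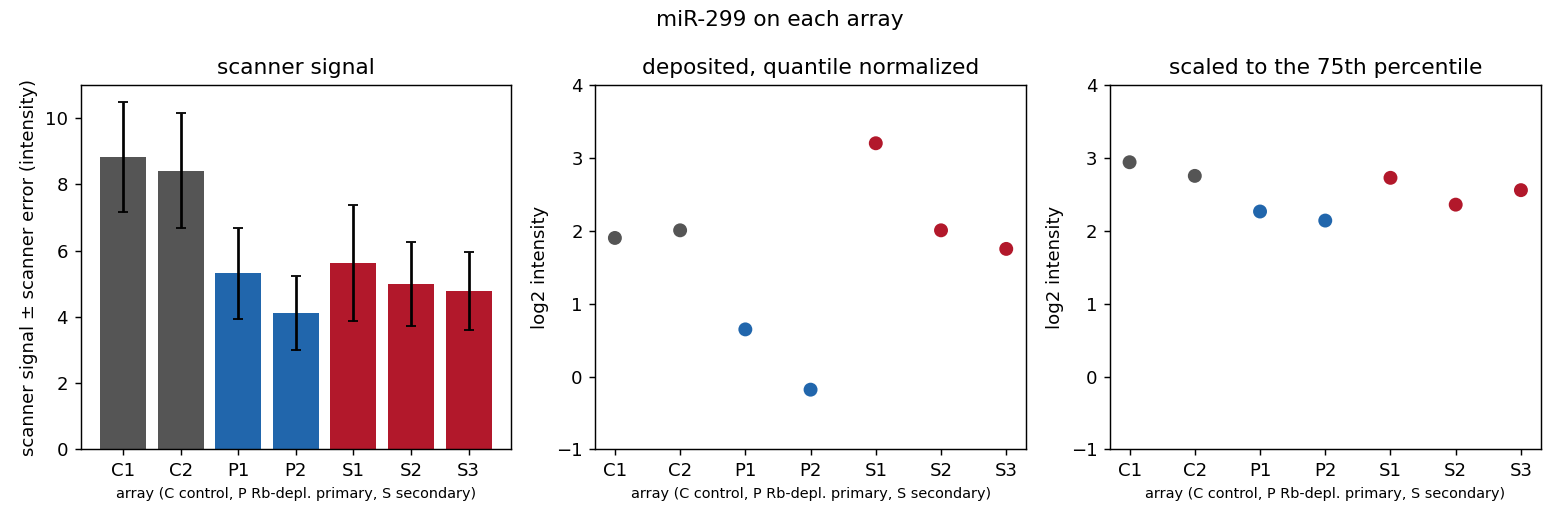
miR-299 on each array (C, control primary; P, Rb-depleted primary; S, Rb-depleted secondary; numbers are replicates). The left panel gives the scanner signal with the scanner's error, the middle panel the deposited quantile-normalized log2 value and the right panel the log2 value after scaling to the 75th percentile; S1 is the highest array in the middle panel at 3.20, but its signal of 5.62 is below both controls.

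The arms of 1 hairpin were compared within each array, which removes any scaling common to an array. miR-411 exceeded miR-411* by 0.97 and 0.79 in control, by 0.68 and 0.89 in Rb-depleted primary and by 0.94, 0.90 and 0.94 in secondary cells. The group means of this difference were 0.88, 0.78 and 0.93, and the control and secondary arrays overlapped. In the scanner signals the difference was 0.85 and 0.78 in control, 0.75 and 0.84 in Rb-depleted primary and 1.00, 0.88 and 0.92 in secondary cells, with means of 0.81, 0.79 and 0.93. On that scale every secondary array lay above every primary array, a description that was not tested. The nearest were secondary replicate 2 (0.88) and control replicate 1 (0.85), a narrow margin. The scanner error was 7.94% to 9.10% of the signal for miR-411 and 9.41% to 12.8% for miR-411*. For the pair from the overlapping miR-299 hairpins, the deposited difference of miR-299* minus miR-299 was 5.36 on average in control, 6.72 in Rb-depleted primary and 4.96 in secondary cells. In the scanner signals it was 4.47, 4.64 and 4.78, a different order of the groups.

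Along the chromosome the members of the first hairpins differed from those of the last in the comparison of secondary with Rb-depleted primary cells. The 6 miRNAs from Mir379 to Mir380 were 0.29 to 2.09 higher in secondary cells, while the 4 from Mir329 to Mir495 ran from -0.54 to 0.06. This split was drawn after the values were seen and carries no test. It overlapped after quantile normalization of the table's miRNAs alone, where the 6 reached down to 0.07 and the 4 up to 0.08. The other alternatives reused the arrays on which the split was drawn, and some gave identical values. That the split remained in them is no support for it. With no normalization the 6 ran from 0.13 to 0.30 and the 4 from -0.66 to -0.02. The comparison of the primary groups uses the same Rb-depleted primary arrays, so it is no second support for the split. There, Rb-depleted against control, the 6 were the more negative, at -1.72 to -0.33, beside -0.32 to -0.19 for the 4. That separation was lost in each of the 4 fits that left out a control or an Rb-depleted primary array. Between secondary and control cells the 6 and the 4 overlapped, at -0.23 to 0.37 and -0.86 to -0.20. The first 6 include the 5p arms and both arms of a hairpin, while the last 4 are all 3p arms. The GC content was 36.4% for miR-380-3p and 45.5% to 50.0% for the others of the 6, beside 36.4% to 45.5% for the 4. The part of arm or GC content in the split was not tested.

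**Figure D4:**
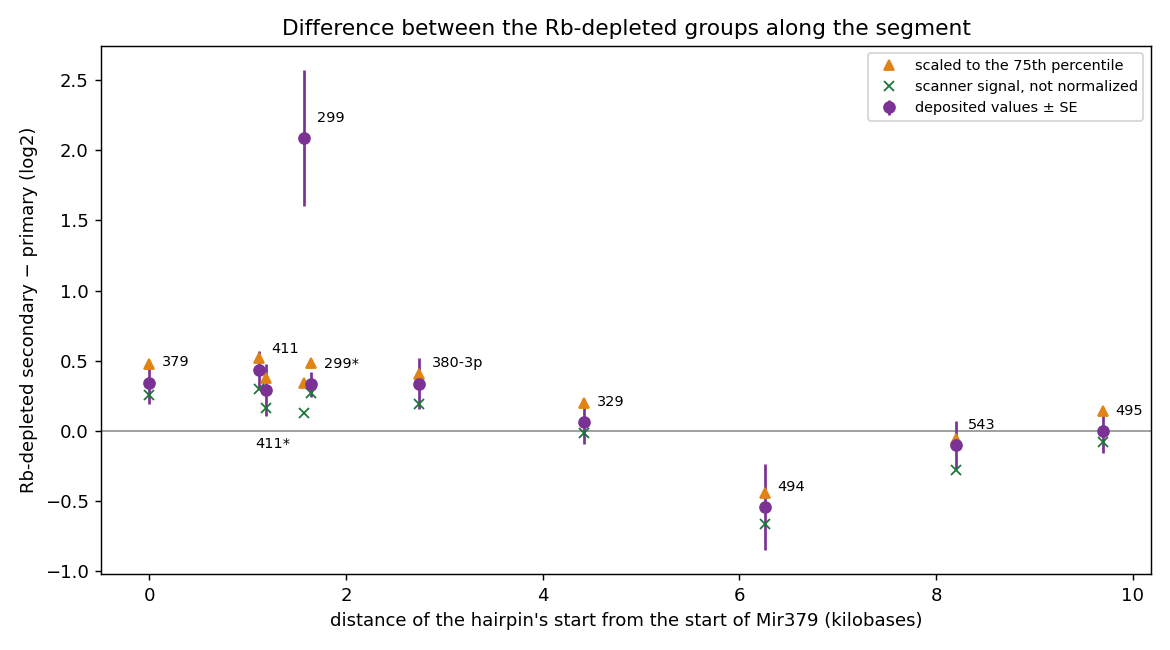
Log2 difference between Rb-depleted secondary and primary cells (y axis) against the distance of each hairpin's start from the start of Mir379 in kilobases (x axis), for deposited values with the SE of the limma fit, values scaled to the 75th percentile and signals without normalization. miR-411* and miR-299* are drawn slightly to the right of their partner arms; miR-379 to miR-380-3p lie above 0 on all 3 scales, and miR-299 is at 2.09 on the deposited scale only.

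Each miRNA was centred on its own mean over the 7 arrays, and the members' mean profile was 0.20 and 0.24 in control, -0.05 and -0.52 in Rb-depleted primary and 0.14, 0.00 and -0.02 in secondary cells. Without miR-299 it was 0.19 and 0.22, 0.06 and -0.38, and -0.02, -0.04 and -0.03. The sign thus turned in Rb-depleted primary replicate 1 and in secondary replicates 1 and 2, the last of which was 0.003 with miR-299. Distances were taken from the mean profile with miR-299, of which each member is itself a part. By this measure miR-411* (root mean square distance 0.06 log2), miR-411 (0.07) and miR-379 (0.08) were closest, and miR-494 (0.48) and miR-299 (0.83) farthest. For all other miRNAs, which took no part in the profile, the median distance was 0.35. The 5 non-members nearest to the profile were miR-541, miR-434-3p, miR-193, miR-154 and miR-410, at distances of 0.10 to 0.11. All but miR-193 are on the list of other Dlk1-Dio3 miRNAs.

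Those others, 27 of which were in the table, gave the setting. Against control cells, 26 of 27 had lower means in Rb-depleted primary cells, with a median difference of -0.58, where 48.8% of all miRNAs were lower. The adjusted threshold was passed by 2, beside 1.59% of all miRNAs. These were miR-337-3p (-0.62 ± 0.09) and miR-136 (-0.61 ± 0.09, limma adjusted p = 0.0432 for each). Without Rb-depleted primary replicate 2 the median was -0.36, and without replicate 1 it was -0.69. Without secondary replicate 1 or secondary replicate 3, 0 passed, as did 0 of all 252 miRNAs, so these counts say nothing about the 27 in particular. Without secondary replicate 2, 3 passed, beside 4.76% of all miRNAs. In secondary cells against control, 4 of 27 passed, 1 higher and 3 lower, where 22.6% of all miRNAs passed. Among them were miR-370 (-1.77 ± 0.24, limma adjusted p = 0.0106) and miR-409-3p (-0.56 ± 0.14, limma adjusted p = 0.0402). Between secondary and Rb-depleted primary cells 23 of 27 were higher, with a median of 0.27, where 53.6% of all miRNAs were higher. Here 5 passed, beside 20.2% of all miRNAs. Of these, miR-370 (-1.49 ± 0.24, limma adjusted p = 0.0172) and miR-136 (1.05 ± 0.08, limma adjusted p = 0.00521) moved in opposite directions. With 1 secondary array left out, 1 to 6 of the 27 passed in secondary cells against control (6.35% to 29.4% of all miRNAs). Between the Rb-depleted groups 2 to 5 passed (6.75% to 26.2% of all miRNAs). The median between these groups was 0.52 without Rb-depleted primary replicate 1 and 0.16 without replicate 2.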

How the data were processed

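In all, 7 RNA samples were hybridized to 1-colour Agilent mouse miRNA arrays. The authors read them with Agilent Feature Extraction (10.7.3.1 in the submitters' notes, 11.0.1.1 in the scanner files) and deposited log2 values after quantile normalization in GeneSpring, for 252 mouse miRNAs and 11 control rows. The scanner files, as deposited, hold the linear intensity (total gene signal) of each miRNA with its error. Table rows were tied to scanner names by rebuilding the normalization over 718 features, to within 3.2e-06. Control rows were left out.

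The deposited log2 values were fitted with limma 3.58.1 (R 4.3.3) as 3 group means over all 7 arrays, with p-values adjusted by Benjamini-Hochberg over 252 miRNAs, at 0.1 for the F-test and 0.05 for pairs of groups. Python 3.11.15, numpy 2.4.6, pandas 2.3.3 and matplotlib 3.10.9 were used elsewhere. Alternatives were 4 other scalings, a floor of 1, the brighter miRNAs alone, slide, the replicate number, other moderation, thresholds and adjustment, and each array left out. A change of 1 log2 in 60 of 252 simulated miRNAs was found for 78.7% (Rb-depleted primary against control) and 81.4% (secondary against control). This change is larger than any member's difference from control except that of miR-299 in Rb-depleted primary cells. Noise was drawn separately for each miRNA, with no effect shared by an array. The shares found therefore do not apply to the members' smaller differences. No change was simulated between the Rb-depleted groups.

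Every member is named, with the 5 nearest profiles and at most 2 other Dlk1-Dio3 miRNAs per comparison. The members and lists were chosen with earlier results of these data known. Hairpins were placed on NCBIM37 by exact match of their RefSeq sequences.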

Additional observations from a re-analysis of the deposited data

Results flagged for a closer look

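miR-299 was higher in secondary than in primary Rb-depleted cells by 2.09 on the log2 scale (limma adjusted p = 0.0411). On the deposited scale each of the 3 secondary arrays was above both Rb-depleted primary arrays. In the scanner signals 2 of the 3 (4.99 and 4.78) were below Rb-depleted primary replicate 1 (5.32). The call was lost in every leave-one-out fit (adjusted p of 0.052 to 0.189, limma) and under each of the other scalings (0.0633 to 0.784).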

How the results depend on the processing

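With no normalization between arrays, the median difference over all miRNAs was -0.26, -0.46 and -0.18 in the 3 comparisons. In this setting 10 members passed the F-test (148 of 252 miRNAs). Against control, 5 were called in Rb-depleted primary cells (27 of 252 miRNAs, all lower) and 8 in secondary cells (114 of 252, 109 lower). Between the Rb-depleted groups 0 were called (45 of 252 miRNAs). The members' medians were then -0.70, -0.69 and 0.14, miR-299 and miR-380-3p differed from control in secondary cells by -0.75 and -0.50, and miR-329 by -0.015 between the Rb-depleted groups.

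The F-test passed 5 members after scaling to the 75th percentile of all mouse miRNAs, where 48.8% of all miRNAs passed. Among the brighter miRNAs it passed 1 of 4 members (47.6% of 126 miRNAs). It passed 1 with slide as a term (9.52% of all miRNAs) and 1 in the classical analysis (24.6%). At an adjusted p under 0.05 it passed 0, where 20.2% of all miRNAs passed. Between secondary and Rb-depleted primary cells, 0 members were called after either scaling to the 75th percentile. Of all miRNAs, 13.5% were called with the table's percentile and 24.2% with that of all mouse miRNAs. With a floor 0 members were called (12.5% of 312 miRNAs), as with trend and robust moderation (19.8% of all miRNAs) and by classical tests (5.95%). With slide as a term, 0 of 252 miRNAs were called, so the 0 members there say nothing about the segment. At an adjusted p under 0.1, 3 members passed, where 36.9% of all miRNAs did. The Dunnett-type adjustment, made within each miRNA and not over the 252 miRNAs, called 3 in Rb-depleted primary cells (43 of 252 miRNAs). Scaled to the 75th percentile of the table's or of all mouse miRNAs, the differences from control in secondary cells were -0.30 and -0.27 for miR-299, 0.0092 and 0.036 for miR-299* and -0.042 and -0.016 for miR-380-3p, and miR-495 differed by 0.14 and 0.027 between the Rb-depleted groups. Quantile normalization of the table's miRNAs alone gave -0.45 for miR-299 and 0.0060 for miR-495. With slide as a term, or on 1 slide, miR-299* differed from control in secondary cells by 0.024. Causes were not tested.

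Replicate numbers are shared by the groups but nothing pairs them: same-numbered arrays' deviations correlated at 0.13 between control and Rb-depleted primary cells and at -0.14 to 0.07 otherwise. With the replicate number as a block, 0 members passed the F-test (6 of 252 miRNAs) and 0 were called between the Rb-depleted groups (0 of 252 miRNAs). In that fit miR-380-3p differed from control in secondary cells by -0.052, and miR-495 by 0.014 between the Rb-depleted groups.

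With 1 secondary array left out, the F-test passed 1 to 3 members, where 21.0% to 49.2% of all miRNAs did. No member was called in Rb-depleted primary cells against control (0% to 4.76% of all miRNAs) or between the Rb-depleted groups (6.75% to 26.2%). With each of the 7 arrays left out in turn, the members' median in the first of these comparisons ran from -0.57 to -0.17. In the second it ran from 0.045 to 0.50. In Rb-depleted primary cells against control, miR-494 ran from -0.80 to 0.16, miR-495 from -0.41 to 0.026 and miR-543 from -0.45 to 0.067. In secondary cells against control, miR-299 ran from -0.075 to 0.65 and miR-380-3p from -0.089 to 0.11. Between the Rb-depleted groups, miR-329 ran from -0.10 to 0.23, miR-411* from -0.013 to 0.60, miR-495 from -0.22 to 0.22 and miR-543 from -0.36 to 0.16.

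Groups of 2 and 3 arrays limit every comparison, and miR-299 is limited by a signal near the dimmest of the table.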

Other observations

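miR-329 shares its seed with miR-362-3p, a miRNA outside the Dlk1-Dio3 domain that was looked at for this reason. miR-362-3p was 0.80 ± 0.11 higher in Rb-depleted secondary than in control cells (limma adjusted p = 0.0106), where 22.6% of all miRNAs passed 0.05. Against Rb-depleted primary cells it was 0.89 ± 0.11 higher in secondary cells (limma adjusted p = 0.0146), where 20.2% passed. Seed partners of other members are not reported here. miR-329 itself differed by -0.22 ± 0.15 and 0.06 ± 0.15 in these comparisons (limma adjusted p = 0.354 and 0.806).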
